A study of Mus musculus with 12 samples.

Results

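The comparison set Foxp3-sufficient regulatory T cells (Treg) of the lung against those of the spleen. It was defined by the library labels: the 3 lung WT libraries minus the 3 spleen WT libraries, 6 of the 12 libraries of the series, over every expressed gene (13295 of the 55011 gene symbols in the count table passed the filter on low counts). All 6 came from male C57BL/6 mice aged 21 days that carried Foxp3.ires.GFP, a reporter allele in which GFP is made together with Foxp3, so the WT cells are reporter cells and not unmodified ones. Each library held 1000 cells, double-sorted as DAPI-negative cells positive for TCRβ, CD4, GFP and CD25, and was made with Smart-seq2, a method for small inputs that primes on poly(A) tails. The other 6 libraries, 3 from each organ, came from ∆Foxp3 mice of the same age, sex and strain, and were used here only to ask whether a tissue difference was the same in both genotypes. Their labels give 2 alleles (∆Foxp3.EGFP.iCre with R26.YFP in spleen, ∆Foxp3.ires.GFP in lung), so in those mice tissue and allele cannot be told apart. The labels do not say whether replicates are separate mice, so p-values measure the spread between libraries, which may be technical.

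The organs were handled differently, per the labels' protocols. Spleens were pressed through a strainer. Lungs were perfused, minced and stirred for 35 min at 37 °C in 0.5 mg/mL DNase I and 1.5 mg/mL collagenase IV, and their CD4 T cells were enriched magnetically before the sort. Red cells were lysed with ACK in a step whose organ is not named. Lung origin and enzyme digestion therefore coincide in every library of this comparison and cannot be told apart for any gene below.

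Treg are CD4 T cells that restrain immune responses under the control of the transcription factor Foxp3 and that need interleukin 2, sensed through CD25 (Il2ra). In secondary lymphoid organs most resemble resting T cells, while in tissues such as lung, skin and fat they are known for receptors that guide entry and retention, for the interleukin 33 receptor and for repair factors such as amphiregulin. T cells taken from solid tissue by warm digestion are also known for transcripts of the Fos and Jun families, MAP kinase phosphatases and heat shock proteins, which rise within minutes of many stimuli.

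The WT libraries held 3958892 to 9025150 counts and 20307 to 22981 detected genes, and mitochondrially encoded genes took 1.40% to 1.63% of counts. On the first principal component of the 6 libraries (44.8% of the variance) the lung libraries lay together, from 36.1 to 42.5, and spleen WT 1 stood apart at -93.9, beyond the other spleen libraries at -16.6 and -9.60. The predicted repeat genes Gm10800 and Gm10801 took 0.112% of counts in spleen WT 1 and 1.76% to 2.94% in the other 5. Lung WT 1 stood out in immediate early genes, as described below. The values that follow are TMM-scaled CPM (counts divided by effective library size) in the order of replicates 1, 2 and 3, log2 fold changes are lung minus spleen ± SE, and adjusted p-values are from edgeR's quasi-likelihood test with Benjamini-Hochberg adjustment over all 13295 genes.

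At an adjusted p under 0.05, 549 genes (4.13% of those tested) differed, of which 412 (3.1%) were higher and 137 (1.03%) lower in lung. In 547 of the 549 the libraries of the organs did not overlap, against 25.6% of all tested genes. Of the called genes, 349 were more than 2-fold higher and 72 more than 2-fold lower. The count of calls was 427 without spleen WT 1, 320 without spleen WT 2, 325 without lung WT 2 and 281 without lung WT 3. Higher calls were 247 without spleen WT 2 and 236 without lung WT 3. Lower calls were 74, 73, 86, 49 and 45 without spleen WT 1, spleen WT 2, lung WT 1, lung WT 2 and lung WT 3. Scaling by library totals in place of TMM gave 371 higher and 260 lower.

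**Figure D1:**
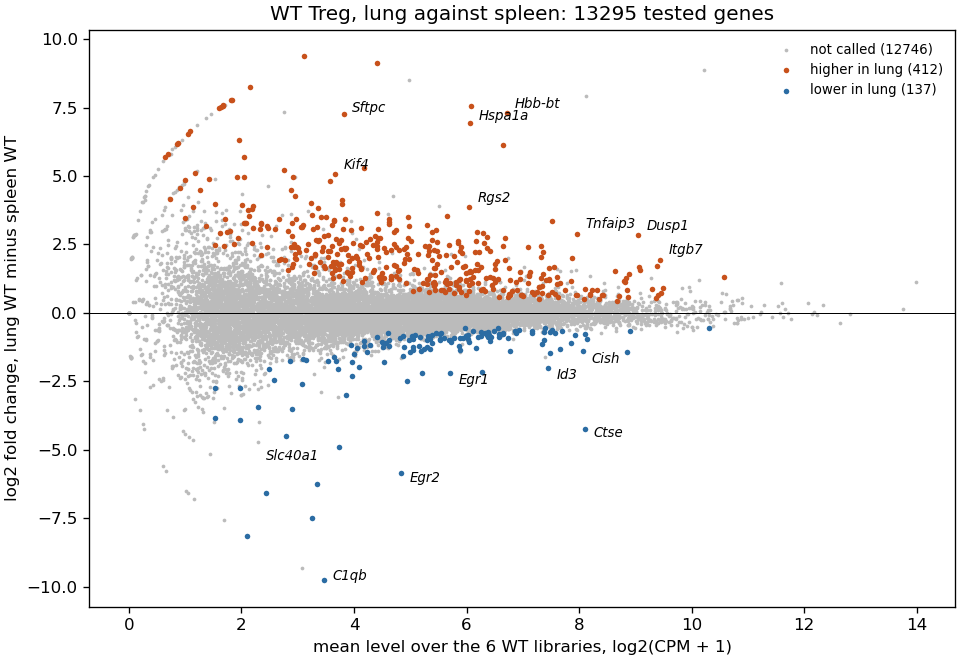
Each point is 1 of the 13295 tested genes, with the mean level over the 6 WT libraries on the x axis (log2 of CPM + 1) and the fitted log2 fold change of lung minus spleen on the y axis. The 412 genes called higher in lung (orange) outnumber the 137 called lower (blue), and the curved outer lines are genes at or near 0 counts in an organ, whose fitted fold depends on the prior count.

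The genes behind the sort were expressed at high levels in both organs, and none of them was called. Foxp3 (mm10 chrX:7573644-7595245, plus strand) was at 1026, 991 and 1096 CPM in spleen and 1418, 1361 and 1328 CPM in lung. Its lung libraries were all above its spleen libraries, but the difference missed the threshold (log2 0.399 ± 0.27, adjusted p = 0.476). The ∆Foxp3 libraries, at 114 to 469 CPM, entered the estimate of Foxp3's spread. None of the 16 alternative settings called Foxp3, with adjusted p down to 0.0625. Il2ra was at 719, 897 and 766 CPM in spleen and 711, 599 and 607 CPM in lung (log2 -0.31 ± 0.23, adjusted p = 0.507). Cd4 (log2 0.12 ± 0.12, adjusted p = 0.624), Cd3e (log2 -0.19 ± 0.11, adjusted p = 0.391), Trbc1 (log2 -0.05 ± 0.13, adjusted p = 0.876) and Trbc2 (log2 -0.16 ± 0.14, adjusted p = 0.569) were likewise not called. The 9 Treg markers, none called by edgeR (2 at an unadjusted p under 0.05) and 1 called by DESeq2, summed to 6827 to 7784 CPM in spleen and 7182 to 7465 CPM in lung.

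Among 30 tested genes of the core Treg signature, 2 were higher and 1 lower (10%, against 4.13% of all tested genes), with 3 higher and 3 lower in a fit with only the 6 WT libraries, and their median log2 fold change was -0.08, against -0.001 over all tested genes. Capg, which caps actin filaments, was at 544, 483 and 459 CPM in spleen and 917, 902 and 987 CPM in lung (log2 0.92 ± 0.15, adjusted p = 0.00341). Dusp4, a nuclear MAP kinase phosphatase, was at 20.2, 19.3 and 24.7 CPM in spleen and 149, 80.1 and 64.7 CPM in lung (log2 2.19 ± 0.32, adjusted p = 0.00143). Every lung library exceeded every spleen library for both genes. Ctla4, the checkpoint receptor, was at 527, 485 and 430.2 CPM in spleen and 877, 658 and 666 CPM in lung and missed the threshold (log2 0.61 ± 0.17, adjusted p = 0.0585). So did Tnfrsf18 (log2 -0.56 ± 0.16, adjusted p = 0.0689), Tnfrsf9 (log2 -1.61 ± 0.49, adjusted p = 0.088) and Nrp1 (log2 0.66 ± 0.204, adjusted p = 0.0845).

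Receptors and regulators known from tissue Treg formed a group of 31 tested genes, of which 6 were higher and 1 lower in lung (22.6% called, against 4.13% of all tested genes), with a median log2 fold change of 0.67. Il1rl1 (mm10 chr1:40429570-40465415, plus strand), the interleukin 33 receptor ST2, was at 29.1, 21.3 and 21.6 CPM in spleen and 95.2, 95.6 and 71.2 CPM in lung (log2 1.86 ± 0.32, adjusted p = 0.00496). Icos, a costimulatory receptor, was at 289, 240.3 and 289.8 CPM in spleen and 658, 578 and 607 CPM in lung (log2 1.17 ± 0.22, adjusted p = 0.00726). Neither overlapped between the organs. Nfil3, a basic leucine zipper repressor, was nearly absent from spleen, with 0.668, 1.61 and 2.47 CPM in spleen and 12.1, 16.8 and 24.3 CPM in lung (log2 3.52 ± 0.49, adjusted p = 0.000987). Fgl2, a secreted suppressor molecule (log2 1.55 ± 0.38, adjusted p = 0.0373), Ikzf3, the Ikaros-family factor Aiolos (log2 0.88 ± 0.19, adjusted p = 0.0151), and Cxcr6, described with the chemokine receptors, were the other higher members. Areg, which encodes amphiregulin, was at 5.57, 0 and 1.23 CPM in spleen and 57.7, 14 and 7.91 CPM in lung. Every lung library was higher, without a call (log2 3.36 ± 1.04, adjusted p = 0.107). The same held for Rora (log2 1.33 ± 0.35, adjusted p = 0.0538). Klrg1 (log2 0.796 ± 0.37, adjusted p = 0.274), Gata3 (log2 0.31 ± 0.24, adjusted p = 0.53) and Il10 (log2 -0.37 ± 0.61, adjusted p = 0.797) were not called. Of the 16 alternative settings, 2 called Areg and 3 called Klrg1. With 1 library left out, some calls ended. Fgl2 lost its call without spleen WT 1, spleen WT 2, lung WT 2 or lung WT 3 (adjusted p up to 0.0989) and Ikzf3 without spleen WT 2, lung WT 2 or lung WT 3 (adjusted p up to 0.0741). The count of higher members ran from 4 to 9 over these leave-outs and reached 14 with limma.

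The called genes for migration were all higher in lung. Of 17 tested chemokine receptors 3 were higher and none lower (17.6%, against 4.13% of all tested genes, median 0.84). Ccr2, the receptor of monocyte-attracting chemokines, was at 112, 50.02 and 119 CPM in spleen and 348, 412 and 364 CPM in lung (log2 1.99 ± 0.42, adjusted p = 0.0196). Ccr4, a receptor of skin- and lung-homing T cells, was at 101, 91.1 and 142 CPM in spleen and 209, 289 and 328 CPM in lung (log2 1.31 ± 0.24, adjusted p = 0.00701). Cxcr6, the receptor of CXCL16, was at 0, 6.61 and 6.94 CPM in spleen and 57.7, 37.1 and 33.8 CPM in lung, so that its lowest lung library stood far above its highest spleen library (log2 3.34 ± 0.66, adjusted p = 0.0159). The lymph node receptor Ccr7 was at 809.6, 745 and 635 CPM in spleen and 1780.1, 1081 and 948 CPM in lung and was not called (log2 0.799 ± 0.45, adjusted p = 0.372). Of 29 homing and adhesion genes 2 were higher (6.9%, near the 4.13% of all tested genes, median 0.34). Itgb7, the β7 integrin chain that pairs with α4 or αE, was at 262, 286 and 316 CPM in spleen and 438, 1128 and 1739.8 CPM in lung (log2 1.93 ± 0.37, adjusted p = 0.0126), a range among lung libraries wider than for the receptors above, with lung WT 3 highest. Gcnt1, a glycosyltransferase that builds selectin ligands, was at 1.67, 0.715 and 0.926 CPM in spleen and 13.8, 9.07 and 14.9 CPM in lung (log2 3.43 ± 0.597, adjusted p = 0.00497). Itgae, the αE chain, was higher in every lung library (147, 91.5 and 129.6 CPM in spleen and 385, 408 and 303 CPM in lung) but missed the threshold (log2 1.57 ± 0.69, adjusted p = 0.25), as did Itgb1 (log2 1.52 ± 0.39, adjusted p = 0.0508). Itgae was called in 2 of the 16 alternative settings. Ccr2 lost its call without spleen WT 1, spleen WT 2, lung WT 2 or lung WT 3 (adjusted p up to 0.0643) and Itgb7 without spleen WT 1 or spleen WT 2 (adjusted p up to 0.0666). With only the 6 WT libraries Cxcr6 (adjusted p = 0.102) and Itgb7 (adjusted p = 0.0587) were not called.

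Of 20 tested genes of the S100, annexin and galectin list, which marks activated and tissue T cells, 6 were higher in lung and none lower (30%, against 4.13% of all tested genes), and 14 were not called. All 20 had positive fold changes, as did 49.8% of all tested genes, and the median was 1.09. Crip1, a small LIM-domain protein, was at 327, 235 and 380.05 CPM in spleen and 959.6, 961 and 1146 CPM in lung (log2 1.703 ± 0.25, adjusted p = 0.00206). Vim, the intermediate filament vimentin, was at 1115, 813 and 722 CPM in spleen and 1918, 2077 and 2508 CPM in lung (log2 1.29 ± 0.25, adjusted p = 0.0104). Lmna, which forms the nuclear lamina, was at 20.6, 19.3 and 9.41 CPM in spleen and 105, 83.7 and 103 CPM in lung (log2 2.56 ± 0.49, adjusted p = 0.0127). In all 3 genes the lung libraries lay above the spleen libraries with a clear gap. Anxa2 (log2 1.68 ± 0.39, adjusted p = 0.0295), S100a11 (log2 1.09 ± 0.26, adjusted p = 0.0276) and Anxa1, listed at 0 in 2 spleen libraries (log2 4.95 ± 1.08, adjusted p = 0.0238), completed the called members. S100a4 (log2 1.797 ± 0.48, adjusted p = 0.0594), Lgals1 (log2 1.28 ± 0.34, adjusted p = 0.0576) and S100a10 (log2 0.94 ± 0.26, adjusted p = 0.0626) missed the threshold. S100a4 was called in 4 and Lgals1 in 8 of the 16 alternative settings. S100a11 lost its call without spleen WT 2, spleen WT 3, lung WT 2 or lung WT 3 (adjusted p up to 0.125) and Anxa1 without spleen WT 1, spleen WT 2, lung WT 2 or lung WT 3 (adjusted p up to 0.115). Anxa2 lost its call without spleen WT 1, spleen WT 2, spleen WT 3, lung WT 2 or lung WT 3 (adjusted p up to 0.112) and Vim without spleen WT 2 (adjusted p = 0.0521). Lmna lost its call without spleen WT 3 (adjusted p = 0.0512). The list's count ran from 2 (without spleen WT 2) to 10 (without spleen WT 1), with 3 without spleen WT 3, lung WT 2 or lung WT 3. With only the 6 WT libraries S100a11 was not called (adjusted p = 0.0559). Among other higher genes, Lad1, the anchoring-filament protein ladinin, was at 0, 1.97 and 0.463 CPM in spleen and 21.5, 22.5 and 19 CPM in lung (log2 4.83 ± 0.67, adjusted p = 0.00104). Plcd1, a phospholipase, was higher too (log2 3.08 ± 0.62, adjusted p = 0.0114).

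**Figure D2:**
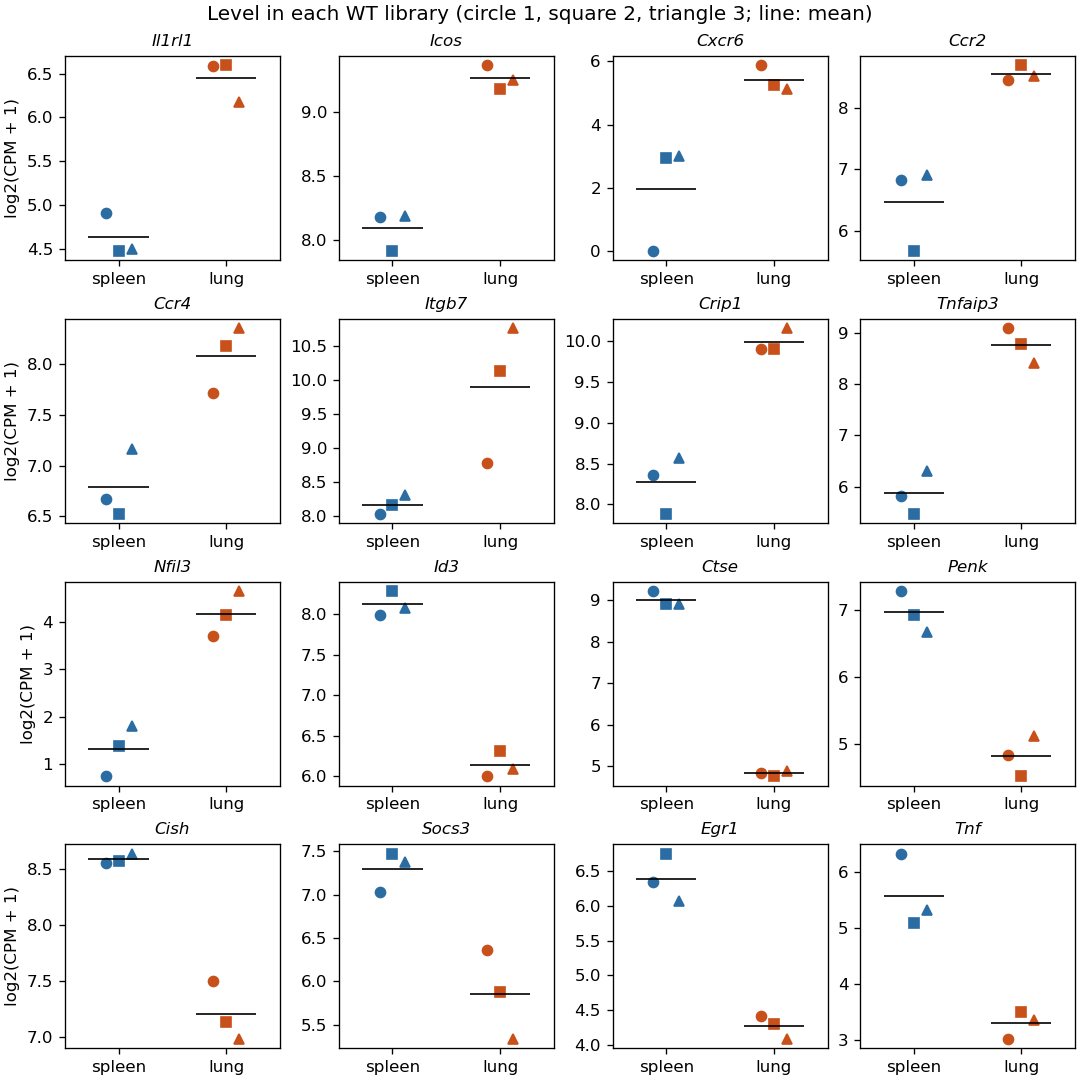
Levels of 16 genes in each WT library on a log2(CPM + 1) axis that differs between panels, with circles, squares and triangles for replicates 1, 2 and 3 and a line at the mean of each organ. In every panel the 3 lung libraries lie on 1 side of the 3 spleen libraries, above for Il1rl1 to Nfil3 and below for Id3 to Tnf, and Itgb7 shows the widest spread among lung libraries.

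Fewer genes were lower than higher in lung. Id3 (mm10 chr4:136143497-136145755, plus strand), an inhibitor of E-protein transcription factors, was at 254, 312 and 269 CPM in spleen and 62.9, 78.3 and 67.2 CPM in lung (log2 -2.004 ± 0.16, adjusted p = 2.68e-05) and was the 1 called member among 21 tested genes of resting T cells (4.76%, against 4.13% of all tested genes, median 0.01). Ctse (mm10 chr1:131638306-131675505, plus strand), the aspartic protease cathepsin E, was at 597, 479.7 and 479 CPM in spleen and 27.6, 26.2 and 28.8 CPM in lung (log2 -4.23 ± 0.29, adjusted p = 5.49e-06), the smallest adjusted p among the genes named here. The spleen libraries were separated from the lung libraries by more than the spread within either organ. Penk, the opioid precursor proenkephalin, which appears in lists of both core and tissue Treg, was at 155, 121 and 101 CPM in spleen and 27.8, 22 and 33.8 CPM in lung (log2 -2.17 ± 0.500, adjusted p = 0.0305). The resting-cell genes Tcf7 (log2 -0.24 ± 0.21, adjusted p = 0.572), Lef1 (log2 -0.16 ± 0.21, adjusted p = 0.74) and Klf2 (log2 0.69 ± 0.28, adjusted p = 0.192) were not called. Cd55, which limits complement on the cell surface (log2 -1.46 ± 0.24, adjusted p = 0.00298), Itm2a, a membrane protein of activated T cells (log2 -1.14 ± 0.21, adjusted p = 0.00732), and Spin2c (log2 -2.04 ± 0.43, adjusted p = 0.0139) were lower too. Mir155hg, the host transcript of miR-155, was at 26.8, 27.3 and 18.2 CPM in spleen and 1.29, 4.66 and 3.16 CPM in lung (log2 -2.999 ± 0.49, adjusted p = 0.00298). Cd55 and Itm2a were picked after their values were seen. Penk lost its call without any 1 of the 6 (adjusted p up to 0.137) and Spin2c without lung WT 2 or lung WT 3 (adjusted p up to 0.0789).

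Among feedback inhibitors of cytokine receptors Cish, Socs3 and Socs1 were lower, while Stat5b was higher. Cish, induced by STAT5 and limiting its signal, was at 376, 381 and 399 CPM in spleen and 179.6, 139.7 and 125 CPM in lung (log2 -1.38 ± 0.16, adjusted p = 0.000212). Socs3 was at 129.8, 177 and 166 CPM in spleen and 81.2, 57.8 and 39.4 CPM in lung (log2 -1.41 ± 0.27, adjusted p = 0.00787). Socs1 was at 44, 43.9 and 49.7 CPM in spleen and 14, 22.5 and 17.8 CPM in lung (log2 -1.34 ± 0.28, adjusted p = 0.0134). These 3 feedback genes were lower in every lung library than in any spleen library. Stat5b itself (log2 0.77 ± 0.19, adjusted p = 0.0317) and the STAT target Pim1 (log2 0.64 ± 0.16, adjusted p = 0.0344) were higher, so 5 of the 21 tested SOCS and STAT genes were called (23.8%, against 4.13% of all tested genes) in both directions. The median of the 21 was 0.12, and 14 had positive fold changes. Socs1 lost its call without lung WT 1 or lung WT 3 (adjusted p up to 0.0576) and Stat5b without spleen WT 1, spleen WT 2, lung WT 1, lung WT 2 or lung WT 3 (adjusted p up to 0.0982). Pim1 lost its call without any 1 of the 6 (adjusted p up to 0.101). With library totals in place of TMM, Stat5b and Pim1 were not called and the list had 0 higher calls. Of 14 tested T helper cytokines, Tnf alone was called (7.14%, against 4.13% of all tested genes, with 3 lower in the fit with only the 6 WT libraries), at 79.7, 33.1 and 38.9 CPM in spleen and 7.11, 10.4 and 9.32 CPM in lung (log2 -2.505 ± 0.41, adjusted p = 0.0031). Lta and Ltb, its relatives, were lower without a call (log2 -1.44 ± 0.39, adjusted p = 0.0549 and log2 -0.699 ± 0.19, adjusted p = 0.0569), and Il4, Il5 and Il13 had 0 counts in all 6 libraries.

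Cell division genes had the largest share of called members among the 37 lists. Of 36 tested members 30 were higher in lung and none lower (83.3%, against 4.13%), all 36 had positive fold changes, against 49.8% of all tested genes, and the median was 2.18, against -0.001 over all tested genes. Their summed level was 1369 to 1662 CPM in spleen and 3689, 4030 and 5441 CPM in lung. Kif11 (mm10 chr19:37376403-37421859, plus strand), the motor that separates spindle poles, was at 5.79, 6.97 and 9.57 CPM in spleen and 64, 54.9 and 87.9 CPM in lung (log2 3.22 ± 0.31, adjusted p = 7.32e-05). Ccna2, the cyclin of S phase and G2, was at 36.4, 30.9 and 24.1 CPM in spleen and 158, 134 and 212 CPM in lung (log2 2.46 ± 0.296, adjusted p = 0.000432). Mki67, the proliferation marker, was at 43.2, 11.6 and 31.3 CPM in spleen and 139, 117 and 166 CPM in lung (log2 2.28 ± 0.34, adjusted p = 0.00226). Every lung library exceeded every spleen library for these 3 genes. Of the replication genes, Mcm3 was at 107, 108 and 51.7 CPM in spleen and 266, 263 and 332 CPM in lung (log2 1.69 ± 0.32, adjusted p = 0.0104). Mcm5 was at 132, 92.7 and 86.3 CPM in spleen and 179.8, 260.4 and 297 CPM in lung (log2 1.24 ± 0.302, adjusted p = 0.0336). Pcna was not called (log2 0.602 ± 0.27, adjusted p = 0.241). Outside the list, Kif4 (log2 5.06 ± 0.58, adjusted p = 0.000342), Esco2 (log2 4.13 ± 0.58, adjusted p = 0.00133), Aspm (log2 3.99 ± 0.700, adjusted p = 0.00614), Ect2 (log2 3.64 ± 0.65, adjusted p = 0.00837) and Ncapg2 (log2 3.08 ± 0.31, adjusted p = 9.23e-05), which act on chromosomes and cytokinesis, were higher. Uhrf1, which maintains DNA methylation at replication and was picked after its values were seen, was at 12.6, 16.6 and 24.8 CPM in spleen and 110.3, 124 and 175 CPM in lung (log2 2.93 ± 0.31, adjusted p = 0.000193). Between 20 (without spleen WT 2 or lung WT 3) and 30 of the list stayed called with 1 library left out, with 21 without spleen WT 3. Mcm5 lost its call without spleen WT 2, spleen WT 3, lung WT 2 or lung WT 3 (adjusted p up to 0.127).

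Short promoter stretches of division genes are shown with the letters of elements known from this group. RefSeq promoters (GRCm38.p6, 250 bases before to 50 after each listed start) were found for 9463 tested genes. The E2F letters TTTNGCGC and the cell cycle homology region (CHR) letters TTTGAA, both searched on both strands and both added after the data were seen, were matched as plain text. CHR letters were in 46.7% of the cell cycle list (14 of 30 with a promoter), 31.5% of genes called higher (100 of 317), 16.3% of genes called lower (16 of 98) and 14.9% of all tested genes. E2F letters were in 16.7% of the list, 7.89% of genes called higher, 1.02% of genes called lower and 2.86% of all tested genes. Below are the 160 bases before the start of Kif11 (chr19:37376222-37376381, plus strand, CHR letters in capitals on the reverse strand at -19 to -14) and Mcm5 (chr8:75109349-75109508, plus strand, overlapping E2F matches in capitals at -153 to -142).
Kif11: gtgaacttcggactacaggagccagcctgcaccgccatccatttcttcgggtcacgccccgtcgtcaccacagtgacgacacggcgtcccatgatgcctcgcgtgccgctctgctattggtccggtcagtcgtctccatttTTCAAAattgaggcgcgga
Mcm5: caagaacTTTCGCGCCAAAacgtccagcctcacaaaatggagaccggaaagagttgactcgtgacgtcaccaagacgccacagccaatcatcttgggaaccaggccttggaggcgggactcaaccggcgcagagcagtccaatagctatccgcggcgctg
These matches describe letters in a window and not bound sites.

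Immediate early genes split in direction. In 28 tested genes 7 were higher and 5 lower (42.9% called, against 4.13%), with a median of 0.94. On the higher side were members of the AP-1 complex. Jun was at 51.2, 9.47 and 17.6 CPM in spleen and 330.4, 108 and 92.8 CPM in lung (log2 2.74 ± 0.66, adjusted p = 0.041). Junb was at 332, 257 and 237 CPM in spleen and 1447, 585 and 393 CPM in lung (log2 1.56 ± 0.37, adjusted p = 0.0328). Fosl2 was at 4.34, 3.75 and 2.16 CPM in spleen and 25.4, 21.8 and 10.2 CPM in lung (log2 2.46 ± 0.44, adjusted p = 0.00496). Lung WT 1 was the highest library for all 3. Dusp1, a phosphatase that ends MAP kinase signals, was at 214, 93.6 and 81.3 CPM in spleen and 1675, 627 and 470.5 CPM in lung (log2 2.83 ± 0.604, adjusted p = 0.0261). Ppp1r15a, which reverses the block on translation after stress, was at 45.9, 30.2 and 19.6 CPM in spleen and 587, 250.3 and 158 CPM in lung (log2 3.37 ± 0.69, adjusted p = 0.0222). Klf6, a zinc finger factor, was at 255, 186 and 175 CPM in spleen and 694, 543 and 525 CPM in lung (log2 1.52 ± 0.19, adjusted p = 0.000432). For Dusp1, Ppp1r15a and Klf6 alike, spleen WT 1 and lung WT 1 were the highest libraries of their organs. Fosb, at 0.446, 0.715 and 0.463 CPM in spleen and 7.97, 2.59 and 2.64 CPM in lung, was also called (log2 2.99 ± 0.74, adjusted p = 0.0322). Fos itself was at 41.2, 10.00 and 4.63 CPM in spleen and 168, 37.8 and 49.6 CPM in lung and was not called (log2 2.16 ± 0.79, adjusted p = 0.163). It was called in 4 of the 16 alternative settings.

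The 5 lower members were Egr2, Egr1, Btg2, Myc and Mcl1. Egr2 (mm10 chr10:67535475-67542188, plus strand), a zinc finger factor induced through the T cell receptor, was at 63.6, 60.7 and 38.1 CPM in spleen and 1.72, 0 and 0.879 CPM in lung (log2 -5.86 ± 0.54, adjusted p = 7.32e-05). Egr1 was at 79.7, 106 and 66.3 CPM in spleen and 20.5, 18.7 and 16 CPM in lung (log2 -2.196 ± 0.24, adjusted p = 0.000169). Both were lower in each lung library than in any spleen library, lung WT 1 included. Btg2, an antiproliferative factor, was at 744, 645 and 633 CPM in spleen and 359, 205 and 191 CPM in lung (log2 -1.42 ± 0.22, adjusted p = 0.00243). Myc, a driver of growth, was at 363, 279 and 221 CPM in spleen and 159, 96.1 and 94.2 CPM in lung (log2 -1.304 ± 0.23, adjusted p = 0.00421). The survival factor Mcl1 was at 144, 148 and 131 CPM in spleen and 99.7, 84.2 and 86.1 CPM in lung (log2 -0.65 ± 0.17, adjusted p = 0.0434). None of these 3 overlapped between organs. The receptor-responsive orphan factor Nr4a1 was at 475, 321 and 165 CPM in spleen and 892, 385 and 199.5 CPM in lung (log2 0.62 ± 0.79, adjusted p = 0.73). Its relative Nr4a3 was at 30.2, 23.6 and 11.4 CPM in spleen and 50.6, 21.5 and 8.61 CPM in lung (log2 0.299 ± 0.85, adjusted p = 0.893). Neither was called. Both had negative fold changes without lung WT 1 (-0.12 and -0.54), and Nr4a3 also without spleen WT 3 (-0.0068) and without spleen WT 1 and lung WT 1 together (-0.22). The list summed to 2018 to 3133 CPM in spleen and to 7097, 3245 and 2571 CPM in lung. The sum of monocyte, macrophage and dendritic cell markers, given further on, was also highest in lung WT 1, though not every marker was. It was 1320 CPM over 20 genes, against 493 and 487 CPM in the other lung libraries and 523 to 856 CPM in spleen. The part of these cells in the immediate early result was not tested. Higher calls numbered 2 without spleen WT 2 or spleen WT 3, and 3 in a fit with only the 6 WT libraries, where Jun (adjusted p = 0.124), Junb (0.121), Dusp1 (0.0676) and Fosb (0.0772) were not called. Jun lost its call without spleen WT 2, spleen WT 3, lung WT 1 or lung WT 2 (adjusted p up to 0.117) and Junb without spleen WT 1, spleen WT 2 or spleen WT 3 (adjusted p up to 0.109). Dusp1 lost its call without spleen WT 2 or spleen WT 3 (adjusted p up to 0.0943) and Ppp1r15a without spleen WT 1, spleen WT 2 or spleen WT 3 (adjusted p up to 0.087). Fosb lost its call without spleen WT 1, spleen WT 2, spleen WT 3 or lung WT 1 (adjusted p up to 0.134) and Mcl1 without any 1 of the 6 (adjusted p up to 0.191). In these bulk libraries a lower level can be fewer cells with the transcript or less RNA per cell, and these cannot be told apart.

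Heat shock genes had few calls, all of them higher in lung, and more in some of the alternative settings. Of 21 tested chaperones 3 were higher and none lower (14.3%, against 4.13% of all tested genes, median 0.51). Positive fold changes were seen in 16 of the 21, against 49.8% of all tested genes, and 10 had an unadjusted p under 0.05 with edgeR. Hspa1a (mm10 chr17:34969190-34972156, minus strand), the inducible HSP70, was at 2.56, 0 and 0 CPM in spleen and 127, 102 and 163 CPM in lung (log2 6.94 ± 0.76, adjusted p = 0.000432), with 0 counts in 2 spleen libraries. Hspa1b was at 1.23, 0.179 and 0 CPM in spleen and 10.6, 10.4 and 15.8 CPM in lung (log2 4.47 ± 0.84, adjusted p = 0.0114). These near-identical copies can share reads, so the split between them is uncertain. Dnajb1, their HSP40 partner, was at 202, 116 and 112 CPM in spleen and 335, 304 and 323 CPM in lung (log2 1.16 ± 0.23, adjusted p = 0.0106). Without spleen WT 2 the list kept 1 call. Hspa1b lost its call without spleen WT 2 (adjusted p = 0.0522) and Dnajb1 without spleen WT 2 (adjusted p = 0.0565). Hsph1 (log2 1.68 ± 0.49, adjusted p = 0.0764) and Hsp90aa1 (log2 1.09 ± 0.43, adjusted p = 0.186) were not called, nor was Hspa5, the chaperone of the endoplasmic reticulum (log2 -0.18 ± 0.28, adjusted p = 0.791). Hsph1 was called in 3 and Hspa8, also without a call here, in 6 of the 16 alternative settings. The fit with only the 6 WT libraries called 8 of the list, edgeR without the low-count filter 8, limma 10 and DESeq2 5.

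**Figure D3:**
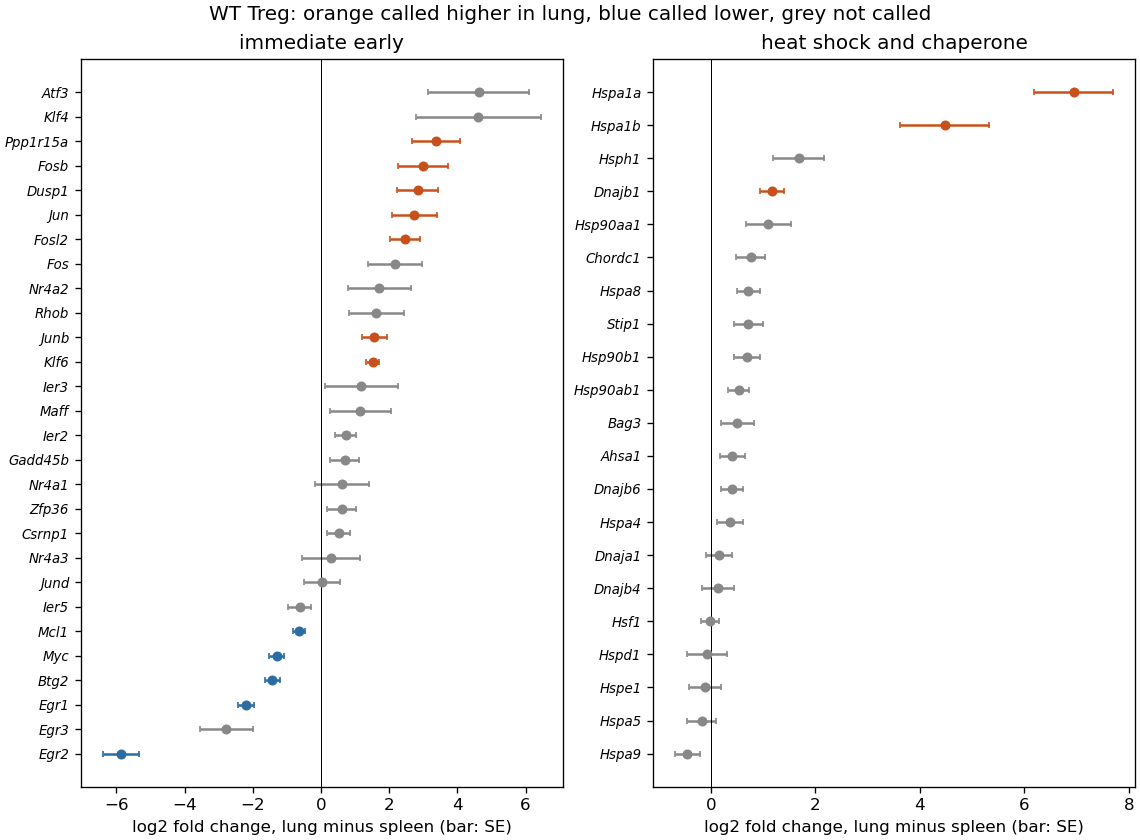
Log2 fold change of lung minus spleen with its SE for the 28 tested immediate early genes (left) and 21 tested chaperones (right), orange for genes called higher in lung, blue for genes called lower and grey for genes not called. Immediate early genes spread to both sides, from Egr2 at -5.86 to Atf3, not called, at 4.62, and Hspa1a and Hspa1b lie highest among the chaperones.

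Negative regulators of signalling changed in both directions. Of 14 tested MAP kinase phosphatases and feedback genes 4 were higher and 1 lower (35.7%, against 4.13% of all tested genes, median -0.11). Rgs2, which shortens G protein signals, was at 5.35, 13.9 and 6.17 CPM in spleen and 193, 109.6 and 60.3 CPM in lung (log2 3.86 ± 0.45, adjusted p = 0.000432). Dusp10, a phosphatase of JNK and p38, was at 55.6, 52.9 and 46.1 CPM in spleen and 282, 141 and 63.3 CPM in lung (log2 1.65 ± 0.396, adjusted p = 0.0336), with lung WT 3 close to the spleen libraries. Dusp6, which is selective for ERK, was the lower one, at 39.5, 38.2 and 26.1 CPM in spleen and 11, 7.26 and 11.1 CPM in lung (log2 -1.81 ± 0.25, adjusted p = 0.00087). Among 19 tested NF-κB subunits and feedback genes 1 was called (5.26%, near the 4.13% of all tested genes, median -0.04). It was Tnfaip3 (mm10 chr10:19000910-19015657, minus strand), the ubiquitin-editing enzyme A20, at 55.6, 43.6 and 78.2 CPM in spleen and 544, 437 and 338 CPM in lung (log2 2.89 ± 0.27, adjusted p = 7.32e-05). Nfkbia, another classical target of the pathway, was at 788, 551 and 578 CPM in spleen and 1199.5, 521 and 464 CPM in lung and overlapped between organs (log2 0.19 ± 0.28, adjusted p = 0.776). Its change was negative without lung WT 1 (-0.36) or without spleen WT 1 and lung WT 1 together (-0.17). Zbtb32, a repressor of activated lymphocytes picked after its values were seen, was at 21.8, 31.3 and 25.6 CPM in spleen and 119.95, 114 and 175 CPM in lung (log2 2.38 ± 0.25, adjusted p = 0.000157). Dusp10 lost its call without spleen WT 1, spleen WT 2, spleen WT 3, lung WT 1 or lung WT 2 (adjusted p up to 0.103). It was not called with only the 6 WT libraries either (adjusted p = 0.0941), where this list kept 2 higher calls, without Dusp1 and Dusp10.

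Promoter letters were also searched in these stimulus-responsive lists, on both strands. The cyclic AMP response element (CRE) letters TGACGTCA were in 16.7% of immediate early genes (4 of 24 with a promoter, Btg2, Dusp1, Maff and Ppp1r15a) and in 3.69% of all tested genes. The heat shock element letters GAANNTTC were in 58.8% of chaperones (10 of 17, Hspa1a and Hspa1b included) against 6.99%, and NF-κB letters GGNNTTTCC in 50% of the NF-κB list (8 of 16) against 7.32%. Most genes of both lists were not called. AP-1 letters TGANTCA were in 4.17% of immediate early genes against 5.9%, and the serum response (CArG) box in 8.33% (Egr2 and Zfp36) against 1.53%. Among all genes called higher the shares were 5.68% for CRE, 7.26% for the heat shock element, 6.94% for NF-κB and 6.94% for AP-1. The 160 bases before the start are given for a gene of each group, with the matched letters in capitals. They are Hspa1a (chr17:34972157-34972316, minus strand, heat shock element at -104 to -97), Dusp1 (chr17:26508473-26508632, minus strand, CRE at -143 to -136) and Tnfaip3 (chr10:19015411-19015570, minus strand, NF-κB at -24 to -16 and at -12 to -4).
Hspa1a: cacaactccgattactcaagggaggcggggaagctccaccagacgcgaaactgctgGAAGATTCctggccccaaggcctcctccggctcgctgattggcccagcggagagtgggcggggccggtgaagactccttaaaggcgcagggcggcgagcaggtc
Dusp1: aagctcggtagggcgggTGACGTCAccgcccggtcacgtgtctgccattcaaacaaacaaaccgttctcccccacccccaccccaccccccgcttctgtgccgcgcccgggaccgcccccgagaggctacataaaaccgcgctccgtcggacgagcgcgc
Tnfaip3: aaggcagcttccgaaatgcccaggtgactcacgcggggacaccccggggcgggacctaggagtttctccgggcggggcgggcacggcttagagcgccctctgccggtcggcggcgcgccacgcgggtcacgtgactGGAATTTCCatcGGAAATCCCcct
No sequence is shown for the other members, and no factor's binding was measured.

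Several lists had no call with edgeR. None of 30 oxidative phosphorylation genes, 35 ribosomal protein genes, 22 cholesterol genes, 30 genes of T cell receptor signalling, 19 co-inhibitory receptors, 15 TNF receptor family members or 15 Th1 genes was called, with medians of -0.09, -0.29, 0.11, -0.05, 0.10, -0.25 and 0.24. Positive fold changes numbered 9, 2, 13, 14, 11, 5 and 10 in the same order, against 49.8% of all tested genes. At an unadjusted p under 0.05 these lists had 2, 12, 2, 7, 8, 5 and 1 genes, and DESeq2 called 0, 2, 0, 1, 3, 1 and 1. The ribosomal protein list summed to 49480, 36230 and 35320 CPM in spleen and 34810, 34160 and 35600 CPM in lung. The fit with only the 6 WT libraries called 3 co-inhibitory receptors, 1 TNF receptor family member and none of the other 5 lists. Of 21 lipid genes 4 were higher (19%, against 4.13% of all tested genes). Elovl5, a fatty acid elongase, was at 218, 278 and 296 CPM in spleen and 408, 459 and 389 CPM in lung (log2 0.66 ± 0.14, adjusted p = 0.0165). Dgat1, which makes triglyceride, was at 44, 38.8 and 35 CPM in spleen and 112, 93.8 and 72.1 CPM in lung (log2 1.24 ± 0.22, adjusted p = 0.00469). Ltb4r1, the leukotriene B4 receptor, was at 4.9, 4.11 and 7.25 CPM in spleen and 59, 23.8 and 26.5 CPM in lung (log2 2.74 ± 0.54, adjusted p = 0.0141). Cd36, a fatty acid receptor, was at least 31.7-fold higher in lung, since its spleen libraries had 0 counts and 3 counts over the organ served as the floor. Cd36 is also made by macrophages, endothelium and red cell precursors. Of interferon genes, Slfn1 (log2 -0.96 ± 0.21, adjusted p = 0.0159) was the 1 lower call of 33 type I interferon genes (3.03%), and Irgm1 (log2 -0.68 ± 0.18, adjusted p = 0.0413) and Socs1 were the lower calls of 23 interferon gamma genes (8.7%), against 4.13% of all tested genes. Elovl5 lost its call without lung WT 2 (adjusted p = 0.0692) and Ltb4r1 without spleen WT 1 or spleen WT 2 (adjusted p up to 0.0945). Cd36 lost its call without spleen WT 2 (adjusted p = 0.0545) and Slfn1 without spleen WT 2, lung WT 2 or lung WT 3 (adjusted p up to 0.0926). Irgm1 lost its call without any 1 of the 6 (adjusted p up to 0.132).

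Further lists held 1 to 3 called genes each, some of them already described, and several shares were near the 4.13% of all tested genes. Cd28, a costimulatory receptor (log2 0.59 ± 0.15, adjusted p = 0.0362), was called with Icos among 18 costimulation genes (11.1%). Single higher calls were Egln3, an oxygen sensor, among 25 glycolysis and hypoxia genes (4%, log2 2.17 ± 0.46, adjusted p = 0.0146), Tgif1, a repressor of TGF-β targets, among 19 genes of that pathway (5.26%, log2 1.36 ± 0.26, adjusted p = 0.00787), Pde4b, a cyclic AMP phosphodiesterase, among 16 adenosine and nucleotide genes (6.25%, log2 0.77 ± 0.17, adjusted p = 0.0151) and mt-Nd3 among 11 mitochondrially encoded genes (9.09%, log2 3.77 ± 0.58, adjusted p = 0.00224). The level of mt-Nd3 was near the floor in spleen, at 0.334, 0.536 and 0.463 CPM (9 counts), and 5.17, 7.77 and 5.8 CPM in lung. The mitochondrially encoded list summed to 13240 to 15460 CPM in spleen and 14280 to 16640 CPM in lung. Cst7, a protease inhibitor, was the lower call among 13 cytotoxic granule genes (7.69%, log2 -1.29 ± 0.25, adjusted p = 0.00885). Il1rl1 was the 1 call of 30 cytokine receptors (3.33%), Icos of 11 follicular helper genes (9.09%) and Ltb4r1 of 10 Th17 genes (10%). Of these 10 Th17 genes 9 had positive fold changes, against 49.8% of all tested genes, with a median of 1.34. With edgeR 6 of them had an unadjusted p under 0.05. The Th17 list summed to 264.9 to 346.3 CPM in spleen and 548.6 to 557.1 CPM in lung. Nfil3 was the 1 call of 18 clock genes (5.56%), Dusp1 of 15 glucocorticoid response genes (6.67%) and Mcl1 of 22 apoptosis regulators (4.55%). Of 13 Th2 genes Ccr4, Il1rl1 and Plcd1 were higher (23.1%). Of 25 Kruppel-like and quiescence factors Klf6 was higher and Btg2 lower (8%). Cd28 lost its call without spleen WT 1, spleen WT 2, spleen WT 3, lung WT 2 or lung WT 3 (adjusted p up to 0.162) and Egln3 without spleen WT 2 or lung WT 1 (adjusted p up to 0.053). Pde4b lost its call without spleen WT 2, spleen WT 3, lung WT 1 or lung WT 2 (adjusted p up to 0.0717) and Cst7 without lung WT 3 (adjusted p = 0.0559). With only the 6 WT libraries Egln3 was not called (adjusted p = 0.0809).

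**Figure D4:**
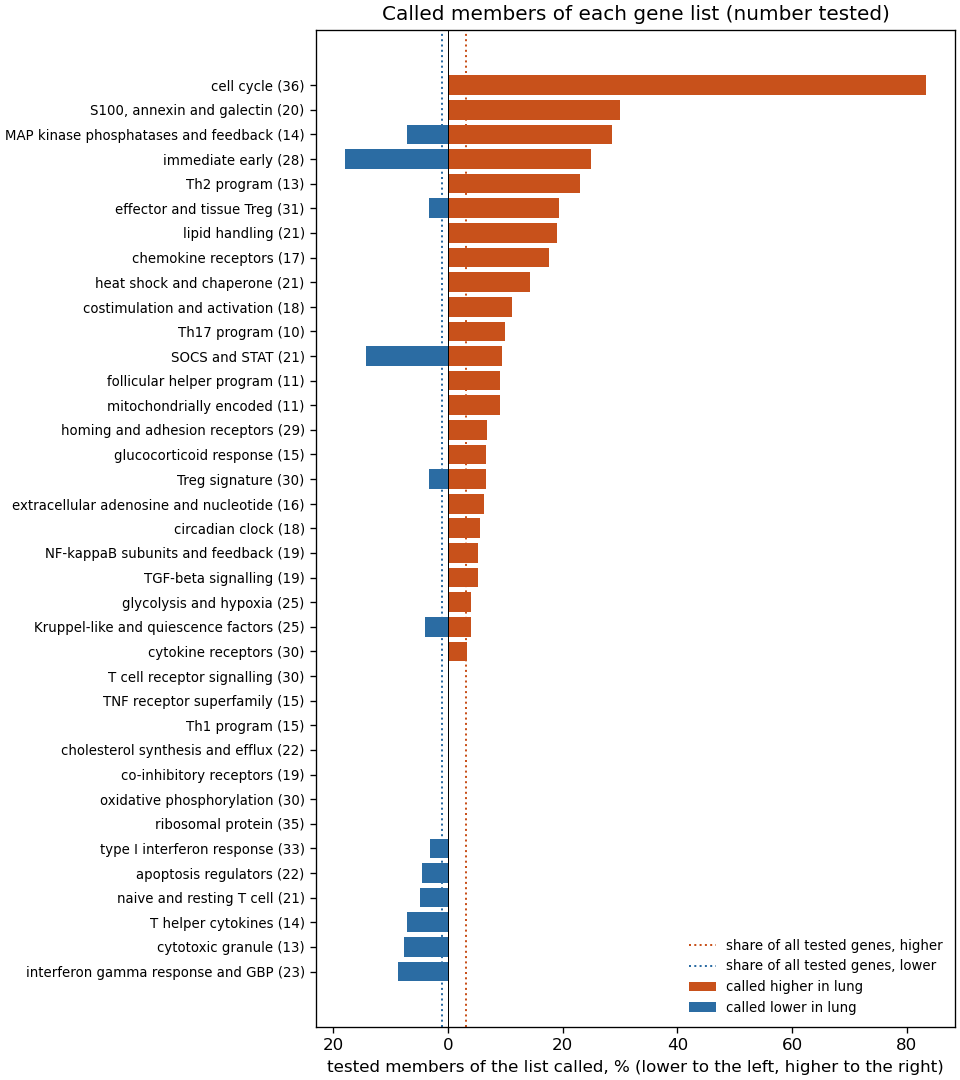
Share of the tested members of each of 37 gene lists called higher in lung (orange, to the right) and lower (blue, to the left), with dotted lines at the shares of all tested genes (3.1% higher and 1.03% lower) and the number tested in brackets. Cell cycle reaches 83.3%, far beyond the next lists, the immediate early list extends to both sides, and 7 lists have no called member.

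Transcripts of other cells differed between the organs. Of 13 erythroid and platelet markers in the table, 9 were tested and 4 called higher (44.4%, against 4.13% of all tested genes), and the sum of the 13 was 10.96 to 19.1 CPM in spleen and 3569, 4924 and 1991 CPM in lung. Most of it was hemoglobin. Hbb-bs was at 8.35, 3.22 and 2.93 CPM in spleen and 2386, 3429 and 1328 CPM in lung. Alas2, the first enzyme of heme synthesis in red cell precursors, was at 0.446, 3.93 and 4.47 CPM in spleen and 208, 264 and 118 CPM in lung (log2 6.13 ± 1.39, adjusted p = 0.036). Hba-a2 (log2 7.56 ± 1.48, adjusted p = 0.0189) and Hbb-bt (log2 7.299 ± 1.52, adjusted p = 0.0251) were called, while reads of the near-identical hemoglobin genes are hard to divide. Car1 was at 0 in all 6 libraries and the erythroid factor Klf1 at 0 in 5. No erythroid call remained without spleen WT 1, spleen WT 3 or lung WT 2, and 1 remained without each of the other libraries, while the fit with only the 6 WT libraries called 7. Alas2 lost its call without any 1 of the 6 (adjusted p up to 0.141) and Hba-a2 without spleen WT 1, spleen WT 2, spleen WT 3 or lung WT 2 (adjusted p up to 0.0763). Hbb-bt lost its call without any 1 of the 6 (adjusted p up to 0.104). The part of red cell precursors in the cell cycle result was not tested.

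The called markers of red pulp macrophages were lower in lung. Of 10 tested markers 5 were lower in lung (50%, against 4.13% of all tested genes), and the sum of the 11 was 75.0 to 206.9 CPM in spleen and 27.1 to 41.2 CPM in lung. Axl, not called, had the 1 positive change among the tested markers. It was at 21.5, 19.8 and 20.2 CPM in spleen and 18.5, 38.1 and 36.6 CPM in lung, where it made up most of the sum. Slc40a1, the iron exporter ferroportin, was at 40.3, 16.8 and 14.7 CPM in spleen and 1.72, 0.777 and 0 CPM in lung (log2 -4.89 ± 0.84, adjusted p = 0.00592). C1qb, a complement subunit, had 0 counts in lung and was at least 113-fold lower there. Spic, the macrophage's lineage factor, was at 21.6, 2.14 and 2.47 CPM in spleen and 0.215, 0 and 0 CPM in lung and was higher in spleen by 149.6-fold (95% interval 26.6 to 5936), and Vcam1 by 83.8-fold (95% interval 28.4 to 408). C1qa was at 31.5, 14.5 and 5.25 CPM in spleen and 0, 0.259 and 0 CPM in lung. Cd5l was at 0 in spleen WT 1 and in all lung libraries. Spleen WT 1 had the highest sum. The list kept 3 calls without spleen WT 1, 2 without lung WT 2 or lung WT 3 and none with limma. C1qb lost its call without lung WT 1, lung WT 2 or lung WT 3 (adjusted p up to 0.0944) and Spic without spleen WT 1, lung WT 1, lung WT 2 or lung WT 3 (adjusted p up to 0.125). Vcam1 lost its call without spleen WT 1, lung WT 2 or lung WT 3 (adjusted p up to 0.0712).

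Markers of lung tissue cells were at low levels. Of 15 lung epithelial markers 7 were tested and 1 was called (14.3%, against 4.13% of all tested genes), and the sum of the 15 was 43.2 to 52.5 CPM in spleen and 115.9, 61.9 and 241 CPM in lung. Sftpc, the surfactant protein of alveolar type 2 cells, was at 0, 0.357 and 0.154 CPM in spleen and 64, 4.92 and 9.32 CPM in lung, higher in lung by 182-fold (95% interval 62 to 889). Scgb1a1, the club cell secretoglobin, was at 0, 0.536 and 0 CPM in spleen and 6.25, 3.63 and 174 CPM in lung and came mostly from lung WT 3. Epcam was at 21.3, 30.01 and 37.2 CPM in spleen and 17.4, 26.4 and 19.9 CPM in lung and Sftpb at 0, 0 and 0 CPM in spleen and 0.861, 0.518 and 0.527 CPM in lung. The fibroblast markers Mgp, at least 35.6-fold higher with 0 counts in spleen, and Sparc (log2 3.44 ± 0.88, adjusted p = 0.039) were called among 4 tested (50%, against 4.13% of all tested genes). The list summed to 6.79 to 7.24 CPM in spleen and 17.4 to 36.6 CPM in lung. Lum was at 0 in lung and Dcn at most 0.352 CPM. Mgp lost its call without any 1 of the 6 (adjusted p up to 0.124) and Sparc without spleen WT 1, spleen WT 2, spleen WT 3, lung WT 2 or lung WT 3 (adjusted p up to 0.162). Endothelial markers summed to 445 to 496 CPM in spleen and 392 to 497 CPM in lung with none of 4 tested called by edgeR (1 at an unadjusted p under 0.05) and 2 by DESeq2, and neutrophil markers to at most 34.5 CPM, in lung WT 1. Most of the endothelial sum came from Pecam1 (268 to 328 CPM in spleen, 277 to 327 CPM in lung) and Ly6c1 (162 to 175 and 101 to 165 CPM). Cldn5 had 0 counts in spleen and 0.431, 3.63 and 6.5 CPM in lung (at least 26.2-fold higher). Cdh5 (at most 0.111 CPM in spleen, 0.861 to 1.58 CPM in lung) and Vwf (at most 0.223 and 0.777 to 5.63 CPM) were higher in every lung library. Kdr, Tie1, Tek, Ramp2, Egfl7, Emcn and Plvap overlapped. The 12 B and plasma cell markers summed to 1135 to 1311 CPM in spleen and 1955 to 1994 CPM in lung, mostly from Ighm, the immunoglobulin heavy chain, at 1243, 1239.7 and 1088 CPM in spleen and 1939, 1923 and 1885 CPM in lung (log2 0.69 ± 0.31, adjusted p = 0.244). As for Foxp3, the ∆Foxp3 libraries, at 50.5 to 231 CPM, entered the estimate of Ighm's spread. The other tested B cell markers, present in all 6 libraries, were Cd79b at 23.5, 28.4 and 21.6 CPM in spleen and 25.8, 18.4 and 35.7 CPM in lung, Cd79a at 4.01, 5.54 and 4.94 CPM in spleen and 3.88, 7.77 and 4.57 CPM in lung, Igkc at 22.9, 5.36 and 10.03 CPM in spleen and 11, 19.2 and 15.5 CPM in lung and Ighd at 14.3, 7.32 and 10.2 CPM in spleen and 9.48, 16.8 and 9.67 CPM in lung. Ms4a1 was at 0 in spleen and at most 2.11 CPM in lung. Of 18 tested monocyte, macrophage and dendritic cell markers 3 were lower (16.7%, against 4.13% of all tested genes), Adgre1 (log2 -3.44 ± 0.92, adjusted p = 0.0492), C1qa and C1qb. The list of 20 summed to 856, 544 and 523 CPM in spleen and 1320, 493 and 487 CPM in lung, so that lung WT 1, the library highest in immediate early genes, was highest here too. Lyz2, a lysozyme of myeloid cells, was at 7.57, 0.179 and 2.47 CPM in spleen and 126, 1.55 and 1.76 CPM in lung. H2-Ab1, an MHC class II chain of antigen-presenting cells, was at 12, 0.715 and 2.93 CPM in spleen and 215, 28.2 and 7.56 CPM in lung, and Cd74, its invariant chain, at 53, 20.5 and 15.6 CPM in spleen and 152, 39.4 and 26.4 CPM in lung. Other members were highest in spleen WT 1, such as Csf1r (28.6 CPM, against 6.03 CPM in lung WT 1), Cd68 (19.5 against 5.6 CPM) and Fcer1g (35.6 against 9.04 CPM). Much of the sum in every library came from Ctss (334 to 423 CPM in spleen, 243 to 357 CPM in lung) and Cst3 (105 to 136 and 137 to 200 CPM). None of 5 tested B cell, 2 CD8 T cell, 5 NK and innate lymphoid cell, 3 alveolar macrophage, 2 mast cell and basophil or 1 neutrophil marker was called with edgeR, and 1, 0, 1, 0, 0 and 0 had an unadjusted p under 0.05. DESeq2 called 1 alveolar macrophage marker and none of the others, and the fit with only the 6 WT libraries 1 B cell marker. Adgre1 lost its call without spleen WT 1, spleen WT 2, spleen WT 3, lung WT 2 or lung WT 3 (adjusted p up to 0.189). It was not called with only the 6 WT libraries (adjusted p = 0.0557). How far cells other than Treg enter the genes above was not tested beyond these levels.

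**Figure D5:**
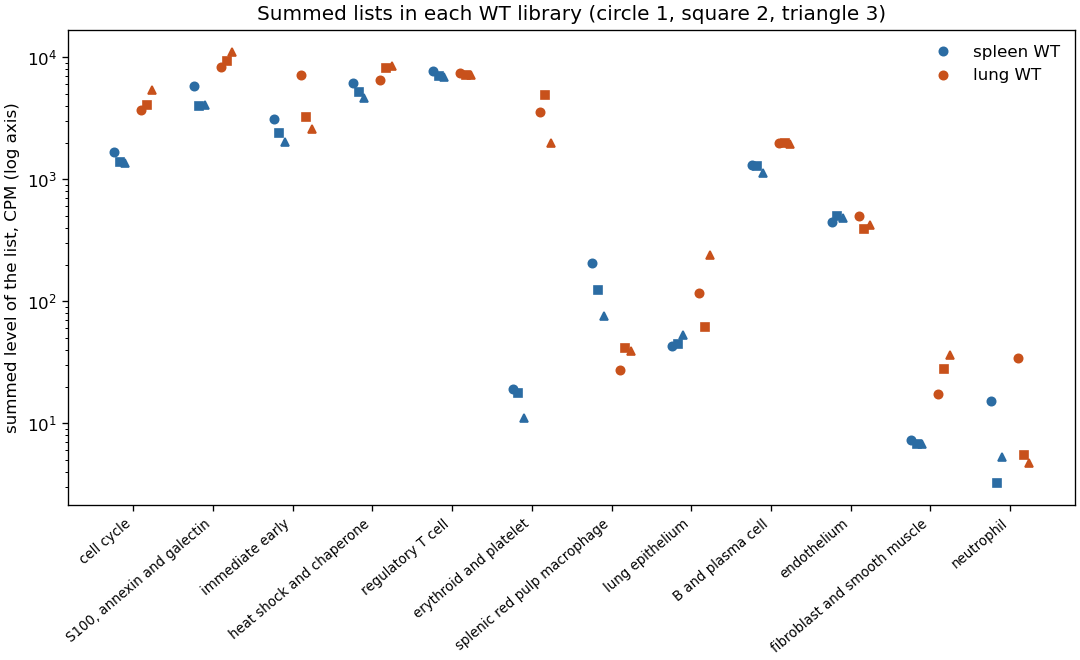
Summed level of 12 gene lists in each WT library on a log axis (CPM), blue for spleen and orange for lung, with circles, squares and triangles for replicates 1, 2 and 3. Erythroid markers differ most, at 10.96 to 19.1 CPM in spleen and 1991 to 4924 CPM in lung, Treg markers lie together at about the same level, and lung WT 1 is the highest point for immediate early genes.

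Whether a tissue difference was the same in both genotypes was asked with the difference of the lung-minus-spleen contrasts, WT minus ∆Foxp3. It shares its WT libraries with the comparison above. In ∆Foxp3 mice organ and allele coincide by the labels. For every gene here, loss of Foxp3 and the change of allele therefore cannot be told apart. The difference was past the threshold for 123 genes (0.925% of those tested), and for 72, 68 and 52 without spleen WT 2, lung WT 2 and lung WT 3. Of 36 cell cycle genes 14 were past the threshold, and the median tissue change was 2.18 in WT and -0.09 in ∆Foxp3. In ∆Foxp3 libraries Kif11 was at 206, 207 and 96.3 CPM in spleen and 169, 212 and 180.5 CPM in lung, and the difference of the contrasts was 3.08 ± 0.403, adjusted p = 0.00267. Ccna2 was at 484, 443 and 213 CPM in spleen and 282, 431 and 333 CPM in lung there (2.58 ± 0.399, adjusted p = 0.00741). For Kif11 the ∆Foxp3 libraries of either organ lay above all WT libraries, and for Ccna2 their lowest library was level with the highest WT lung library (213 against 212 CPM). Egr2 (-5.97 ± 0.66, adjusted p = 0.000758), Egr1 (-2.12 ± 0.32, adjusted p = 0.006), Ctse (-3.66 ± 0.38, adjusted p = 0.000496), Dusp6 (-1.94 ± 0.33, adjusted p = 0.0121) and Cish (-1.47 ± 0.22, adjusted p = 0.00537) were lower in lung in WT, with changes of 0.11, -0.08, -0.57, 0.12 and 0.09 in ∆Foxp3. The ∆Foxp3 levels of Egr2 (65.6, 82.2 and 46.9 CPM in spleen and 102, 64.4 and 44 CPM in lung) were above every WT lung library in both organs, and those of Ctse (53.1, 27.1 and 77.1 CPM in spleen and 34.4, 33.7 and 38.6 CPM in lung) below every WT spleen library. Nfil3 was at 11.8, 33.6 and 25.7 CPM in spleen and 31.8, 29.9 and 27.5 CPM in lung in ∆Foxp3 libraries. Nfil3 (3.19 ± 0.62, adjusted p = 0.0267), Gcnt1 (3.82 ± 0.75, adjusted p = 0.0307), Zbtb32 (2.29 ± 0.34, adjusted p = 0.00599) and Yod1, a deubiquitinase (2.84 ± 0.31, adjusted p = 0.000645), were higher in lung in WT, with ∆Foxp3 changes of 0.33, -0.39, 0.09 and -0.202. Btg2 had opposite signs, -1.42 in WT and 1.56 in ∆Foxp3 (-2.98 ± 0.31, adjusted p = 0.000496).

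Other tissue differences gave no call for the difference of genotypes, with estimates on both sides of 0. These were Tnfaip3 (WT minus ∆Foxp3 0.25 ± 0.36, adjusted p = 0.926), Klf6 (-0.15 ± 0.26, adjusted p = 0.95), Dusp1 (-0.12 ± 0.801, adjusted p = 0.994), Il1rl1 (0.32 ± 0.43, adjusted p = 0.917) and Icos (0.54 ± 0.31, adjusted p = 0.667). Their ∆Foxp3 tissue changes were 2.64, 1.66, 2.95, 1.53 and 0.63. Id3 (-1.04 ± 0.23, adjusted p = 0.0517) and Crip1 (1.48 ± 0.35, adjusted p = 0.0766) lay just outside the threshold, and a missed threshold does not show that the genotypes act alike. For Gt(ROSA)26Sor the WT change was -2.18 and the ∆Foxp3 change 4.33 (-6.51 ± 0.54, adjusted p = 5.54e-05). The labels place the R26.YFP reporter, inserted in this locus, in the spleen ∆Foxp3 libraries, so the alleles compared differ at this gene itself.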

How the data were processed

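RNA was measured in 12 Smart-seq2 libraries, of which the 6 WT ones are compared here. The deposited values are unnormalized counts, 1 per symbol and library. The genome build mm10, STAR 2.7.3a, and featureCounts of Subread 2.0.0 are named per the submitters' processing notes. Annotation, strand setting and the rule for multi-mapping reads are not given in the sources. Libraries were amplified for 18 cycles, per the labels' protocols, and Smart-seq2 adds no molecular identifiers, so intervals and floors cover counting error only. Reads of overlapping or antisense genes cannot be told apart. A floor of 3 counts was 0.332 to 0.758 CPM per library.

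Counts were tested with the two-sided quasi-likelihood test of edgeR 4.0.16 (R 4.3.3), with TMM factors, the default low-count filter, robust dispersion and 1 fit over all 12 libraries with group as the only term (common biological coefficient of variation 0.299). Adjustment was Benjamini-Hochberg over 13295 genes, and calls were at an adjusted p under 0.05. SE is of the log2 fold change. For an organ with 0 counts the fold is given as a minimum, with 3 counts put in its place. For 1 to 3 counts the ratio of summed counts per summed depth is given with a 95% Clopper-Pearson interval. On simulated counts of 12797 genes for this comparison the test recovered 95% of 4-fold and 40% of 2-fold changes, with 5 false calls of 140. The 200 changed genes were drawn at 10 CPM or more in spleen WT, and counts followed the dispersions of the fit itself. The rates therefore do not cover genes that were lower than this in spleen. Coordinates are from GENCODE vM21 (98.2% of tested symbols matched).

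The members, the 37 program and 13 marker lists and the named-gene rule were chosen with earlier results of these data known, so lists are described by counts and medians, without a list test. Named were the 12 higher and 12 lower called genes with the largest changes at a mean of 10 CPM or more without overlap (predicted genes, pseudogenes and receptor segments left out), sort genes, up to 4 called genes per list (2 abundant ones if none), the 6 smallest p-values of the genotype difference, and genes said to be picked after their values were seen. Further list members are given with their values, and a few named by the rule are not reported here. Alternatives used edgeR with RLE factors or library totals, DESeq2 1.42.0, limma 3.58.1 voom, other filters, a fold of 1.5, the WT libraries alone, a replicate block and left-out libraries. The labels do not say that replicate numbers pair mice, and the correlations of same-numbered libraries' deviations were 0.021, 0.040 and -0.024.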

Additional observations from a re-analysis of the deposited data

Results flagged for a closer look

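The genes below had a lung-minus-spleen change that differed between WT and ∆Foxp3 by the test of the difference (edgeR, adjusted p under 0.05), given as WT minus ∆Foxp3 on the log2 scale. In ∆Foxp3 mice allele and organ coincide by the labels.

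Among division genes the difference was 5.02 for Kif4, 4.42 for Esco2, 3.28 for Ncapg2, 3.08 for Kif11, 2.58 for Ccna2, 2.27 for Stmn1 and 2.02 for Cdc45. Each was higher in the lung in WT, and the ∆Foxp3 changes of these 7 genes ran from -0.29 (Esco2) to 0.15 (Cdc45).

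Among genes lower in WT lung it was -5.97 for Egr2, -2.12 for Egr1, -2.98 for Btg2, -3.66 for Ctse, -1.94 for Dusp6, -1.47 for Cish, -2.97 for Tnf and -6.51 for Gt(ROSA)26Sor. Their ∆Foxp3 changes were 0.11, -0.08, 1.56, -0.57, 0.12, 0.09, 0.46 and 4.33 in the same order.

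Among other genes higher in WT lung it was 5.92 for Lad1, 3.82 for Gcnt1, 3.19 for Nfil3, 2.84 for Yod1 and 2.29 for Zbtb32. For Dgat1 it was -1.67, with a ∆Foxp3 change of 2.91 and a WT change of 1.24.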

How the results depend on the processing

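Genes called in the tissue comparison, in all, higher and lower, numbered 957, 667 and 290 without the low-count filter, 1024, 727 and 297 with DESeq2, 1064, 667 and 397 with limma, and 235, 202 and 33 against a fold of 1.5. Lower calls were 260 with library totals and 64 without spleen WT 1 and lung WT 1 together. With 1 library left out they ran from 281 to 515 in all, 236 to 429 higher and 45 to 120 lower. The difference of genotypes gave 363 without the filter, 301 with DESeq2, 219 with limma, 50 against a fold of 1.5, and 52 to 141 with 1 library left out. Of the 549 calls, 546 were shared by DESeq2, 499 by limma, 235 by the fold of 1.5 and 268 to 391 by the leave-outs. The causes were not tested.

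A replicate block gave 534 calls (422 higher, 112 lower) and 101 for the difference of genotypes. The pairing of the numbers is not stated, and the correlations above do not show it. Calls it ended include those of Cxcr6, Anxa2, Cd28, Pim1, Irgm1, Mcm5, Mcm7 and Alas2. Of 145 called genes followed, 50 kept their call in all 16 alternatives and 95 lost it at least once. All 145 kept their direction.

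Genes without a call that changed sign are given on the log2 scale. With 1 library left out, Trbc1 ran from -0.094 to 0.042 (positive without spleen WT 1, and at 0.026 without lung WT 2), Trbc2 from -0.24 to 0.0051 (positive without spleen WT 1), Nfkbia from -0.36 to 0.45 and Nr4a1 from -0.12 to 1.05 (both negative without lung WT 1). Nr4a3 ran from -0.54 (without lung WT 1) to 0.74 and was at -0.0068 without spleen WT 3. Without spleen WT 1 and lung WT 1 together Trbc1 was at 0.038, Nfkbia at -0.17 and Nr4a3 at -0.22. Depth limits genes near 3 counts in an organ, whose fitted folds depend on the prior count.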

Other observations

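Outside the lists above, histone genes were counted. Of 32 tested H1, H2A, H2B, H3 and H4 symbols of the clustered type 12 were called higher and none lower (37.5%, against 4.13% of all tested genes), and 30 had positive fold changes, with a median of 2.05. H4c9 was at 9.13, 5 and 7.1 CPM in spleen and 19.4, 11.9 and 29.4 CPM in lung (log2 1.51 ± 0.36, adjusted p = 0.0273). H1f4 was at 8.13, 1.43 and 0.771 CPM in spleen and 28.2, 18.7 and 17.1 CPM in lung (log2 2.56 ± 0.599, adjusted p = 0.0253). H3c11 was at 1, 0.536 and 0.617 CPM in spleen and 4.95, 3.89 and 6.15 CPM in lung (log2 2.73 ± 0.55, adjusted p = 0.0113). Their transcripts are made in S phase and mostly lack a poly(A) tail, on which the libraries were primed, and levels were low. Small non-coding RNAs without such a tail gave 4 higher calls of 13 tested (30.8%, against 4.13% of all tested genes). Snord118 was at 3.68, 0.715 and 0.926 CPM in spleen and 15.1, 14 and 17.9 CPM in lung (log2 3.06 ± 0.54, adjusted p = 0.00496) and Rn7sk, which holds back transcription elongation, at 3.45, 2.32 and 1.39 CPM in spleen and 6.68, 10.1 and 11.3 CPM in lung (log2 1.95 ± 0.52, adjusted p = 0.0481). H4c9 lost its call without spleen WT 2, spleen WT 3 or lung WT 3 (adjusted p up to 0.148) and H1f4 without spleen WT 2, spleen WT 3, lung WT 1, lung WT 2 or lung WT 3 (adjusted p up to 0.0878). Rn7sk lost its call without spleen WT 2, spleen WT 3, lung WT 1, lung WT 2 or lung WT 3 (adjusted p up to 0.166). With only the 6 WT libraries none of the 12 was called: 8 missed the threshold (adjusted p 0.0553 to 0.103) and 4 had too few counts to be tested. Rn7sk was not called there either (adjusted p = 0.0728). These sets were picked after their values were seen.

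A few more genes were picked after their values were seen, and the groups they belong to were not counted. Nip7, a factor of ribosome assembly, was at 98.1, 76.8 and 64.8 CPM in spleen and 28.2, 38.9 and 37.6 CPM in lung (log2 -1.197 ± 0.25, adjusted p = 0.0146). Tsr1, another, was at 51.6, 59.3 and 42 CPM in spleen and 26.9, 24.6 and 24.4 CPM in lung (log2 -1.01 ± 0.19, adjusted p = 0.00787), and Ppan at 112, 81.8 and 69.6 CPM in spleen and 41.6, 41.2 and 43.8 CPM in lung (log2 -1.06 ± 0.24, adjusted p = 0.019). All 3 were lower in every lung library than in any spleen library. Gem, a small GTPase, was at 12.1, 10.00 and 5.25 CPM in spleen and 103, 63.7 and 50.5 CPM in lung (log2 2.97 ± 0.38, adjusted p = 0.000698). Sik1, a kinase, was at 9.69, 17.9 and 8.02 CPM in spleen and 58.8, 51.6 and 27.2 CPM in lung (log2 1.96 ± 0.41, adjusted p = 0.0135). Crem, a cyclic AMP responsive repressor, was at 29.3, 43.9 and 29.6 CPM in spleen and 110.5, 78.8 and 54.5 CPM in lung (log2 1.25 ± 0.26, adjusted p = 0.0147). Lung WT 1 was the highest library for Gem, Sik1 and Crem. The stromal genes Mfap4 and Inmt had 0 counts in spleen and were at least 113-fold and 52.4-fold higher in lung. Nip7 lost its call without spleen WT 1 or lung WT 1 (adjusted p up to 0.0582) and Ppan without spleen WT 1, lung WT 1, lung WT 2 or lung WT 3 (adjusted p up to 0.0924). Sik1 lost its call without spleen WT 1 or spleen WT 3 (adjusted p up to 0.0547) and Crem without spleen WT 3 or lung WT 1 (adjusted p up to 0.0547). Inmt lost its call without spleen WT 1, spleen WT 2, spleen WT 3, lung WT 1 or lung WT 3 (adjusted p up to 0.0992).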
